A study of Rattus norvegicus with 3 samples.

Results

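The genes described here are 44 rat genes of the heat shock response and of endoplasmic reticulum (ER) stress: chaperones of the cytosol, the mitochondria and the ER, and factors of the unfolded protein response. They were listed by name, and an array probe was assigned to a gene when its RefSeq accession belonged to that gene. A probe was kept when at least 1 of its colours was well above background on every array and outlier spots left it a value on each. Of the 44 genes, 40 had a probe and 38 were tested, among 14183 genes tested on the whole array. Of these 14183, 8912 have a symbol, and the others are unmatched accessions or probe names, each counted as 1 gene. Shares and medians given for all genes are over both kinds. Hspa1b, Dnajb1, Hspa9 and Manf had no matched probe, and the probes of Hspb8 and Trib3 were not well above background. All 38 tested genes were above background in both colours on all 3 arrays, so none was tested on the strength of 1 group alone.

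The samples were kidneys of male Sprague-Dawley rats, which were 5 weeks old when bought. The control group drank plain water, and the group called G200 drank water with 200 ppm γ-aminobutyric acid (GABA), for 3 weeks according to the methods, with 3 rats in each group by the labels. Total RNA came from kidney tissue that the labels call non-tumor region, and both groups ate the same standard diet. Each of 3 Agilent arrays compared a control sample in Cy3 (green) with a G200 sample in Cy5 (red), and the comparison asks which kidney RNAs differ in level when rats drink GABA.

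Cells answer misfolded proteins with separate programs in each compartment. In the cytosol, heat shock factor 1 raises the transcription of HSP70, HSP90 and small heat shock proteins, which hold or refold unfolded chains. In the ER, the sensors IRE1, PERK and ATF6 start the unfolded protein response, which raises ER chaperones, disulfide isomerases and degradation factors, while PERK shares with other kinases the integrated stress response, in which ATF4 is translated and raises CHOP and genes of amino acid supply.

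Values are log2 ratios of G200 over control, so a positive value means a higher level in G200, and they are given in the order of replicates 1, 2 and 3, which are 3 arrays with no order among them. Of 42877 spots, the share well above background in green was 59.8%, 62.7% and 62.3%, and the share in red was 63.0%, 56.6% and 61.0%. No spot was saturated, and with 3 arrays every value is of limited precision. The dyes were exchanged on 0 arrays, so a difference between the dyes and the effect of GABA cannot be told apart. The arrays shared 1 slide, and 1 scan read them.

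The green channels differed little between arrays. For 1130 probes with 5 or more spots, the variance between arrays over that between spots had a median of 0.677 in green and 6.51 in red, and 50 of these probes differed between arrays in green against 715 in red (adjusted p under 0.05 in a variance ratio test). The control was therefore counted as 1 sample, and a test of the ratio against 0 leaves out the spread between control rats.

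Marker genes of kidney cells were read first. Of 10 proximal tubule markers 9 were tested, 2 rose and 2 fell, the brightest was Miox, and Slc7a7 had no kept probe. Probes of markers that were not kept were dim or had outlier spots, and these were not told apart. In that list 6 passed as higher and 0 as lower with median centring, 7 and 0 with no scaling, and 0 and 0 with the deposited ratio. Of all genes, 35.2%, 56.5% and 15.2% passed as higher under these 3 scalings in turn. All 6 markers of the thick ascending limb were tested, and 3 of them rose, among them the brightest, Umod, the most abundant urinary protein, with 0.98, 0.81 and 0.82. Of 6 podocyte markers 1 rose, with list medians of 0.83, 0.11 and 0.26 and Podxl as the brightest. Slc12a3 was the only tested marker of 4 for the distal convoluted tubule and had 1.23, -0.00 and -0.20. Pvalb and Calb1 had no kept probe, and Trpm6 had no probe at all. Replicate 1 thus stood apart from the others in the podocyte and distal tubule markers.

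Mean ratios of liver markers lay farther from 0 than those of all 38 tested genes. Of 14 listed liver genes 13 were tested and all 13 fell in G200, with a list median of -1.60, -3.14 and -4.40, while Cps1 had no kept probe. The summed signal of these 13 was 194150, 187408 and 214552 in the control channels, and it was 56400, 18816 and 7866 in the G200 channels. The 9 tested proximal tubule markers summed to less in the control channels, 111463, 87342.7 and 100504. In the G200 channels they summed to more, 106996, 95357.8 and 97831.5. Such sums depend on the genes and probes listed. The brightest of the liver genes was Tf, with -1.60, -2.44 and -3.57, and Cyp2e1, which rat kidney also expresses, had -0.41, -1.63 and -1.72. With median centring and with no scaling, 11 of the 13 passed as lower. The part of this signal in the results on chaperones was not tested.

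**Figure D1:**
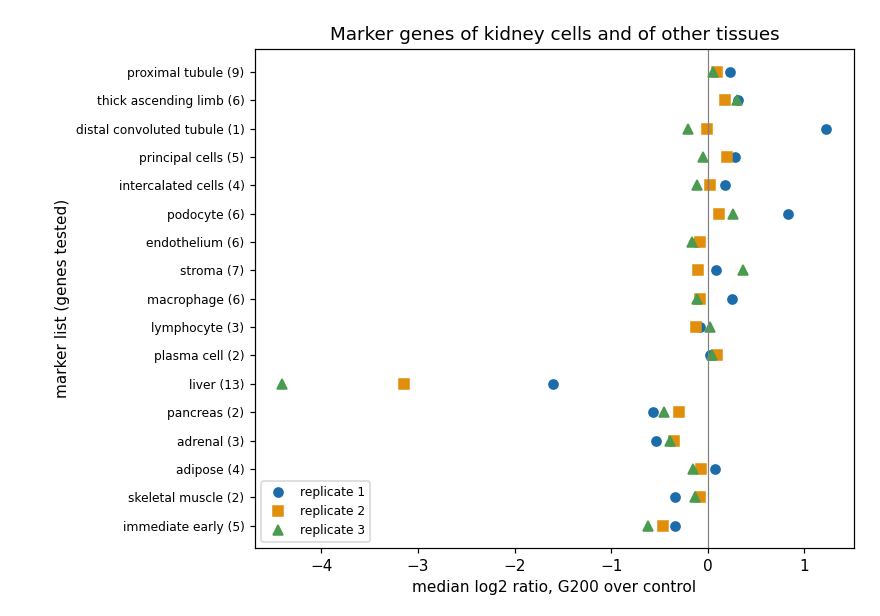
Median log2 ratio of G200 over control for 17 lists of marker genes, with 1 point per array and the number of genes tested in brackets. The liver list lies at -1.60, -3.14 and -4.40, far to the left of the other lists on all 3 arrays.

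Of the 38 tested chaperone and stress genes, 20 changed at an adjusted p under 0.05 in limma, 11 higher and 9 lower in G200. Over all 14183 genes, 37.5% changed, 11.5% higher and 25.9% lower. The 20 genes had the same sign on all 3 arrays, but the call rests on these same 3 ratios, so this is no separate evidence. With loess none of the 38 changed 2-fold or more, against 575 of all genes. With the deposited ratio Cct4 and Creld2 passed at 1.07 and 1.21. With median centring P4hb, Herpud1, Hspe1, Pdia6 and Hspd1 passed at 1.41, 1.21, 1.18, 1.18 and 1.15, and more genes lay above 2-fold with no scaling. Across the tested set the means with loess ran from -0.97 for Atf4 to 0.76 for P4hb. The median over the set was 0.02, 0.05 and 0.09 on the arrays and 0.11 for the gene means, beside -0.06, -0.04 and -0.05 and -0.05 for all genes. By sign alone, 18 of the 38 genes were positive on all arrays, 12 were negative on all and 8 were mixed. Of all 14183 genes, 3775 were positive on all arrays, 5910 were negative on all and 4498 were mixed.

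The direction of these calls depends on how the dyes are scaled. Loess within arrays put the median of all genes at -0.05, centring each array on its median put it at 0.27 among the tested genes, no scaling put it at 0.62, and the deposited log ratio of the authors put it at -0.02. The share of calls that were higher was 30.8% with loess, 80.0% with median centring, 96.3% with no scaling and 40.3% with the deposited ratio. Over all genes, 11.5% were called higher and 25.9% lower with loess, and 35.2% and 8.79% with median centring. With no scaling these shares were 56.5% and 2.14%, and with the deposited ratio they were 15.2% and 22.4%. For the chaperone and stress genes the higher and lower calls numbered 11 and 9 with loess, 24 and 0 with median centring, 31 and 0 with no scaling, and 10 and 6 with the deposited ratio, where Hspd1, Hspe1, Bag3, Hyou1 and Calr no longer passed and Creld2 did. Genes that did not pass with loess also gained calls, all of them higher, 12 with median centring (Hspa4, Hspa8, Hsp90aa1, Dnaja1, Cct3, Tcp1, Hspa5, Hsp90b1, Dnajb11, Xbp1, Ddit3 and Asns) and 17 with no scaling, which added Hsph1, Hsp90ab1, Hsf1, Dnajb9 and Creld2. Every direction given below is that of loess unless another scaling is named. Relative to the median of all genes, the 11 genes that rose lay above it under all 4 scalings. Of the 9 genes that fell, all lay below it with loess and the deposited ratio, and 6 did so with median centring and with no scaling, where Trap1, Hyou1 and Calr lay above it.

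**Figure D2:**
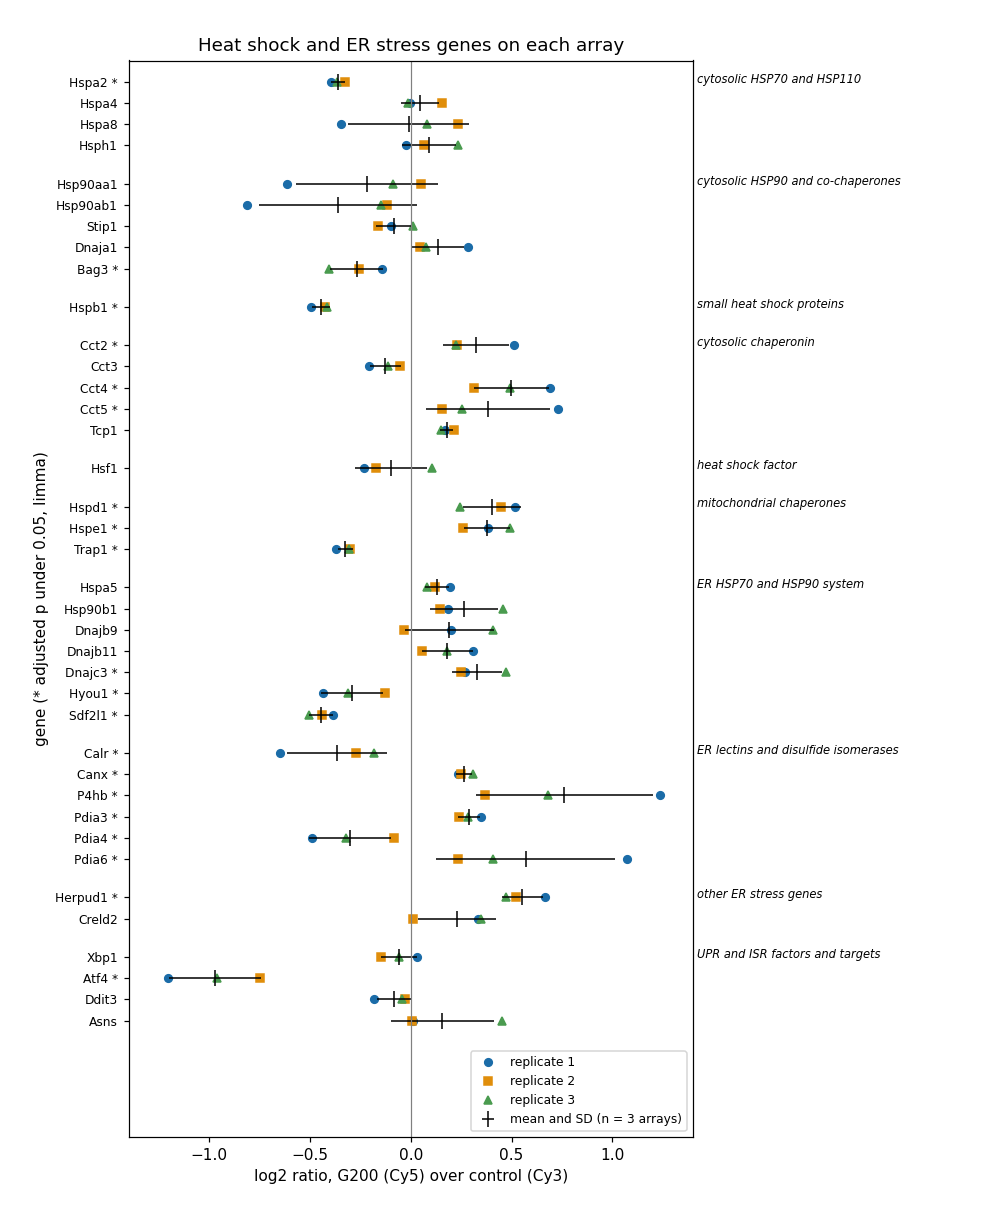
Log2 ratio of G200 over control for the 38 tested genes on each array (points), with the mean and SD over 3 arrays (bars), grouped by role. P4hb lies farthest to the right and Atf4 farthest to the left, and stars mark the 20 genes called with loess scaling, of which 9 are lower, none of them called lower with median centring or no scaling.

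Leaving out arrays changed many of these calls. Without replicate 1 the called genes of the 38 numbered 7 higher and 6 lower, without replicate 2 they numbered 11 and 7, and without replicate 3 they numbered 2 and 2. Calls fell over the whole array too. Of all genes, 6.11% rose and 18.8% fell without replicate 1. The shares were 11.4% and 23.6% without replicate 2, and 1.29% and 10.1% without replicate 3. Hspb1, Hspd1, Herpud1 and Atf4 were called under each of the 3 omissions, and Cct5 and Calr under none. Replicate 1 was the array farthest from the others in 19 of the 38 genes, replicate 2 in 9 and replicate 3 in 10, while over all genes replicate 1 was the farthest in 35.5%.

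In the cytosol, 4 of 5 listed genes of the HSP70 and HSP110 families were tested, and 1 fell. Hspa2, an HSP70 best known from testis, had ratios of -0.40, -0.32 and -0.37. The ratios lay close together and below 0 on all arrays. Its mean was -0.36 ± 0.04 (SD, n = 3), a fold of 0.778 (adjusted p = 0.0085), with an adjusted p of 0.079 without replicate 3. Relative to the median of all genes, Hspa2 had -0.31 with loess and -0.36 with median centring, although its ratio was 0.26 with no scaling.

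Hspa8, the constitutive HSP70 of most cells, had -0.35, 0.23 and 0.08. Replicate 1 was low and the others were above 0, and the mean of -0.01 ± 0.30 (SD, n = 3) did not pass the test (adjusted p = 0.95). Its other 3 probes had means of 0.02, -0.26 and -0.01, and the RefSeq table holds 33 pseudogenes of Hspa8, so the probes may read more than 1 transcript. Hspa4 and Hsph1, which exchange the nucleotide of HSP70, had -0.01, 0.15 and -0.01 and -0.03, 0.06 and 0.23, and neither passed. The median of the 4 genes was 0.02.

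The HSP90 system had 5 of 6 listed genes tested, and 1 fell. Hsp90ab1, the constitutive HSP90, had -0.81, -0.12 and -0.15. Replicate 1 was far lower than the others, and the mean of -0.36 ± 0.39 (SD, n = 3) did not pass (adjusted p = 0.094). Its other probe had -0.07, -0.36 and -0.09, and the mean of both probes, -0.27, passed as lower (adjusted p = 0.047). Hsp90aa1, the inducible form, showed the same unevenness, with -0.61, 0.05 and -0.09. Its mean was -0.22 ± 0.35 (SD, n = 3, adjusted p = 0.23), and its other probes gave -0.07 and 0.51, the last of these with 0.65, 0.36 and 0.54. The probes of Hsp90aa1 thus disagreed in sign, and 16 pseudogenes of it stand in the RefSeq table beside 23 of Hsp90ab1.

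Bag3, which exchanges the nucleotide of HSP70 and guides its clients to autophagy, fell with -0.14, -0.26 and -0.40. All 3 arrays were below 0, over 10 spots per array, with a mean of -0.27 ± 0.13 (SD, n = 3), a fold of 0.830 (adjusted p = 0.037). The adjusted p was 0.088 without replicate 2 and 0.24 without replicate 3. Stip1, which links HSP70 to HSP90, had -0.10, -0.16 and 0.01, and Dnaja1, a J-domain partner of HSP70, had 0.28, 0.05 and 0.07, and neither passed. The median of the 5 genes was -0.22.

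Of the 2 small heat shock proteins among the listed genes, only Hspb1, which encodes HSP27, could be tested. It fell with -0.50, -0.42 and -0.41. All arrays were low and close together, with a mean of -0.44 ± 0.04 (SD, n = 3), a fold of 0.735 (adjusted p = 0.0047). The ratio was 0.17 with median centring, which is -0.10 relative to all genes. Hsf1, the factor that switches on the heat shock genes and is itself regulated mainly after translation, had -0.23, -0.17 and 0.10. Its arrays lay on both sides of 0, and the mean of -0.10 ± 0.18 (SD, n = 3) did not pass (adjusted p = 0.39).

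The cytosolic chaperonin CCT, a ring that folds actin and tubulin, had 5 subunits listed and tested, and 3 of them rose. Cct4 had 0.69, 0.32 and 0.49. All arrays were high, with a mean of 0.50 ± 0.19 (SD, n = 3), a fold of 1.41 (adjusted p = 0.0085, and 0.066 without replicate 3). Cct2 had 0.51, 0.23 and 0.23, with replicate 1 the highest. Its mean was 0.32 ± 0.16 (SD, n = 3), a fold of 1.25 (adjusted p = 0.027), and the adjusted p was 0.10 without replicate 1 and 0.10 without replicate 3. Cct5 had 0.73, 0.16 and 0.25, again with replicate 1 far above the others. Its mean was 0.38 ± 0.31 (SD, n = 3), a fold of 1.30 (adjusted p = 0.049), and the adjusted p was 0.14, 0.051 and 0.13 without replicates 1, 2 and 3. Cct4, Cct2 and Cct5 had larger ratios with the deposited ratio, at 1.07, 0.66 and 0.76. With an offset of 0 in the background correction they had 0.91, 0.50 and 0.59. Tcp1 was positive on all arrays with 0.17, 0.21 and 0.15, and with 0.11, 0.07 and 0.07 on its other probe, but did not pass (adjusted p = 0.073). Cct3 was negative on all arrays with -0.21, -0.05 and -0.12 (adjusted p = 0.19). The 5 listed subunits thus had ratios of unlike sign with loess, with a median of 0.32, whereas all 5 were positive with median centring and with no scaling. Further subunits of the ring, Cct6a, Cct7 and Cct8, belong to another list described below. Their means were -0.05, 0.10 and 0.17 with loess, and none of them passed.

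Of 4 listed mitochondrial chaperones 3 were tested, and 2 rose and 1 fell. Hspd1 and Hspe1 encode HSP60 and HSP10, the barrel and the lid of the mitochondrial chaperonin. Hspd1 had 0.52, 0.45 and 0.24, all above 0. Its mean was 0.40 ± 0.14 (SD, n = 3), a fold of 1.32 (adjusted p = 0.012). The RefSeq table holds 20 pseudogenes of Hspd1. Hspe1 had 0.38, 0.26 and 0.49, also all above 0. Its mean was 0.38 ± 0.12 (SD, n = 3), a fold of 1.30 (adjusted p = 0.011, and 0.10 without replicate 3), and a further probe of Hspe1 had 0.75, 0.33 and 0.73. With the deposited ratio neither gene passed (adjusted p = 0.082 for Hspd1 and 0.060 for Hspe1). Trap1, the HSP90 of mitochondria, fell with -0.37, -0.30 and -0.31. Its arrays were all low and close together, with a mean of -0.33 ± 0.04 (SD, n = 3), a fold of 0.798 (adjusted p = 0.012, and 0.091 without replicate 3). With median centring the ratio of Trap1 was 0.42, which is 0.15 above the median of all genes, so its direction turned, and with no scaling it passed as higher with 0.77 (adjusted p = 0.020).

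Hspd1 and Hspe1 lie side by side on opposite strands, and their gene models overlap by 6 bases, so they share a promoter region. The heat shock element was searched in RefSeq promoters of 300 bases (250 before the start and 50 after, GRCr8) on both strands, as GAA, any 2 bases, TTC, any 2 bases, GAA, or as TTC, any 2 bases, GAA, any 2 bases, TTC. It was found in 267 of 33469 promoters (0.798%) and in 6 of the 38 listed genes that have a promoter entry (15.8%). Hspa1b, Hsp90aa1, Hsf1, Pdia3, Pdia6 and Manf have no entry. Of the 6 genes Cct4, Hspd1 and Hspe1 rose, while Hspa8, Hsph1 and Dnaja1 did not pass the test. The shared Hspd1 and Hspe1 promoter and those of Cct4 and Hspa8 are shown because they hold the same element and their genes had unlike ratios with loess. With median centring Hspd1, Hspe1, Cct4 and Hspa8 all passed as higher, at 1.15, 1.18, 0.78 and 0.85. The stretches are Hspe1 chr9:64084077-64084376 (plus strand), Cct4 chr14:101193062-101193106 (plus strand) and Hspa8 chr8:50080281-50080491 (plus strand). Capitals mark the element, which starts at -65 from the start of Hspe1 as 2 overlapping matches and at 25 from the start of Cct4, and which occurs at -213 and -55 in Hspa8. A match is a description and not a binding site.
Hspe1: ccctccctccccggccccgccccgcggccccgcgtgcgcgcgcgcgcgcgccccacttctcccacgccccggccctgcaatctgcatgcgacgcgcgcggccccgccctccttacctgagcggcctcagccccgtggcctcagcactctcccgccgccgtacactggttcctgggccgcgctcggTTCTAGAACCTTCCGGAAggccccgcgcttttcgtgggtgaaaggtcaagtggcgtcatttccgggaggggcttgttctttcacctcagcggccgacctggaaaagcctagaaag
Cct4: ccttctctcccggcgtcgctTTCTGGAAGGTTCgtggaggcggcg
Hspa8: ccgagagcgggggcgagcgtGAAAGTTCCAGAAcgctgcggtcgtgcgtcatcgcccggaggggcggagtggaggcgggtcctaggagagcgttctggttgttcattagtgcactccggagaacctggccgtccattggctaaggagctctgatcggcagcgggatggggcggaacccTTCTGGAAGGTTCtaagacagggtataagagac

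In the ER, all 7 listed genes of the HSP70 and HSP90 system were tested, and 1 rose and 2 fell. Hspa5, the ER HSP70 known as BiP and the classic mark of ER stress, had 0.19, 0.12 and 0.08. All arrays were slightly above 0, and the mean of 0.13 ± 0.06 (SD, n = 3) did not pass (adjusted p = 0.16). It did pass as higher with median centring, at 0.88 (adjusted p = 0.018), and with no scaling, at 1.23 (adjusted p = 0.0064). Hsp90b1, the ER HSP90 known as GRP94, had 0.18, 0.15 and 0.46, with replicate 3 the highest. Its mean was 0.26 ± 0.17 (SD, n = 3, adjusted p = 0.053, and 0.047 with a robust variance model). Dnajc3, a J-domain partner of BiP and an inhibitor of PERK, rose with 0.27, 0.25 and 0.47. All arrays were high, with a mean of 0.33 ± 0.12 (SD, n = 3), a fold of 1.26 (adjusted p = 0.018, and 0.15 without replicate 3). Dnajb11, another J-domain partner, had 0.31, 0.06 and 0.18, and Dnajb9, the J-domain protein that holds BiP on IRE1, had 0.20, -0.04 and 0.41, and neither passed.

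Hyou1, which exchanges the nucleotide of BiP, fell with -0.44, -0.13 and -0.31. All arrays were below 0 but uneven, with a mean of -0.29 ± 0.15 (SD, n = 3), a fold of 0.817 (adjusted p = 0.035), and the adjusted p was 0.13 without replicate 1 and 0.18 without replicate 3. Sdf2l1, which binds the J-domain partners of BiP, fell with -0.39, -0.44 and -0.51. All arrays were low, with a mean of -0.45 ± 0.06 (SD, n = 3), a fold of 0.735 (adjusted p = 0.0049, and 0.059 without replicate 3), and its other probe had -0.14, -0.27 and -0.33. With median centring Sdf2l1 had 0.21 and Hyou1 0.39, which are -0.06 and 0.12 relative to all genes. Hyou1 thereby passed as higher with median centring (adjusted p = 0.047) and with no scaling (adjusted p = 0.017). The median of the 7 genes was 0.18 with loess.

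All 6 listed ER lectins and disulfide isomerases passed the test with loess, 4 higher and 2 lower, with list medians of 0.29, 0.24 and 0.30. With median centring all 6 ratios were positive. P4hb, the classic protein disulfide isomerase, had 1.24, 0.37 and 0.68. All arrays were high and replicate 1 was the highest. Its mean was 0.76 ± 0.44 (SD, n = 3), a fold of 1.70 (adjusted p = 0.014), the largest rise of the set with loess. The mean was 0.52 without replicate 1, and the adjusted p was 0.072 without replicate 3. With the deposited ratio Creld2 (1.21) and Cct4 (1.07) lay above P4hb (0.89). With an offset of 0 in the background correction Cct4 (0.91) lay above P4hb (0.83). Pdia6 had the same shape as P4hb, with 1.07, 0.23 and 0.41. Its mean was 0.57 ± 0.44 (SD, n = 3), a fold of 1.48 (adjusted p = 0.035), and the mean was 0.32 without replicate 1, with an adjusted p of 0.10 without replicate 3 and 0.056 with a robust variance model. Pdia3, the isomerase that works with the lectins, had 0.35, 0.24 and 0.28. Its arrays lay close together, with a mean of 0.29 ± 0.06 (SD, n = 3), a fold of 1.22 (adjusted p = 0.018), and the adjusted p was 0.071 without replicate 1 and 0.12 without replicate 3. Pdia4 went the other way with -0.49, -0.09 and -0.32. Its mean was -0.30 ± 0.20 (SD, n = 3), a fold of 0.812 (adjusted p = 0.046), and the adjusted p was 0.17 without replicate 1 and 0.20 without replicate 3.

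Calnexin and calreticulin, which hold newly made glycoproteins, moved in opposite directions with loess. Canx had 0.24, 0.25 and 0.31, all above 0 and close together. Its mean was 0.27 ± 0.04 (SD, n = 3), a fold of 1.20 (adjusted p = 0.022), and the adjusted p was 0.056 without replicate 1 and 0.16 without replicate 3. Calr had -0.65, -0.27 and -0.18, all below 0 with replicate 1 the lowest. Its mean was -0.37 ± 0.25 (SD, n = 3), a fold of 0.775 (adjusted p = 0.035), and the adjusted p was 0.11, 0.072 and 0.080 without replicates 1, 2 and 3. With median centring Canx had 0.36 and Calr 0.28, which are 0.10 and 0.01 relative to all genes, so their signs were opposite with loess and not with median centring. The deposited ratio kept the opposite signs, with 0.88 for Canx and -0.25 for Calr, which did not pass there (adjusted p = 0.21). With no scaling Calr passed as higher with 0.63 (adjusted p = 0.028).

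Among the other ER stress genes, 2 of 3 were tested and 1 rose. Herpud1, a membrane protein that gathers the degradation machinery of the ER, had 0.67, 0.52 and 0.47. All arrays were high, with a mean of 0.55 ± 0.10 (SD, n = 3), a fold of 1.47 (adjusted p = 0.0033). Creld2, a small secreted ER stress protein, had 0.33, 0.01 and 0.35. Replicate 2 was near 0, and the mean of 0.23 ± 0.19 (SD, n = 3) did not pass (adjusted p = 0.088), though it did without replicate 2 (adjusted p = 0.028). With the deposited ratio Creld2 had 1.21 and passed (adjusted p = 0.018).

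The ER stress element, known from promoters of ER chaperone genes as a target of ATF6, was searched as CCAAT, any 9 bases, CCACG. It stood in 22 of the 33469 promoters (0.0657%) and in 7 of the 38 listed genes with an entry (18.4%), whereas its last part alone, CCACG, stood in 31.6% of all promoters and in 32 of the 38. Of these 7 genes Dnajc3 and Canx rose, Calr fell, and Hspa5, Hsp90b1, Creld2 and Xbp1 did not pass the test. Genes with this element thus had unlike ratios with loess, whereas all 7 ratios were positive with median centring. The promoters of the first 5 of them are shown for that reason, with the element in capitals. The stretches are Dnajc3 chr15:102432514-102432572 (plus strand), Canx chr10:35158049-35158107 (minus strand), Calr chr19:40213117-40213173 (plus strand), Hspa5 chr3:38452953-38453011 (plus strand) and Hsp90b1 chr7:23012327-23012489 (minus strand). The element reads in reverse complement in Calr, and Hsp90b1 holds 2 matches, 1 on each strand.
Dnajc3: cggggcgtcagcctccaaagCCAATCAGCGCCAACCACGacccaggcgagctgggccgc
Canx: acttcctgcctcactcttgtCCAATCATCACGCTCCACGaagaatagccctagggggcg
Calr: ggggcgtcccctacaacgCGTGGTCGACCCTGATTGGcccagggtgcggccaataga
Hspa5: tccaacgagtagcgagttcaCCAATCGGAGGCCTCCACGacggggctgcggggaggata
Hsp90b1: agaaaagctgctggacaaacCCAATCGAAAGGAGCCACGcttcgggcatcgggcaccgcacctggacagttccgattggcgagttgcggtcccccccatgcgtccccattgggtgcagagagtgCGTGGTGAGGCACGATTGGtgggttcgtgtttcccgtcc

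A pair of further motifs was searched in the same way. The unfolded protein response element TGACGTGG stood in 199 promoters (0.595%), among them those of Bag3 and Hyou1, both of which fell with loess. The ATF4 element TGATGNAA stood in 1332 promoters (3.98%), among them those of Hspa9, Trib3 and Herpud1, and only Herpud1 of these was tested. Herpud1 is shown because it rose on all arrays while Atf4 fell, and the stretch is Herpud1 chr19:10614864-10614911 (minus strand). Capitals mark the element, in reverse complement.
Herpud1: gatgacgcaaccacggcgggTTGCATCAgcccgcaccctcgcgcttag

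Among the factors and targets of the unfolded protein and integrated stress responses, 4 of 5 were tested, and 1 fell. Atf4, the central factor of the integrated stress response, which is controlled mainly through its translation, had -1.21, -0.75 and -0.96. All arrays were low, over 10 spots per array, and none came near 0. The mean was -0.97 ± 0.23 (SD, n = 3), a fold of 0.510 (adjusted p = 0.0016), the largest fall of the set. The mean ran from -1.08 without replicate 2 to -0.85 without replicate 1. With median centring Atf4 had -0.24, which is -0.51 relative to all genes but did not pass the test of its ratio against 0 (adjusted p = 0.13), and with no scaling it had 0.11.

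Among the listed genes, the ATF4 targets Ddit3 and Asns did not pass with loess, and Trib3 could not be tested. Further ATF4 targets, some of which passed, are described below. Ddit3, which encodes the death-linked factor CHOP, had -0.18, -0.03 and -0.04, and its mean was -0.09 ± 0.08 (SD, n = 3, adjusted p = 0.36). Asns, the asparagine synthetase, had 0.01, 0.01 and 0.45, so that replicate 3 alone was high (mean 0.16 ± 0.25, SD, n = 3, adjusted p = 0.28). Xbp1, whose mRNA is spliced by IRE1, had 0.03, -0.15 and -0.06, on both sides of 0, and its mean was -0.06 ± 0.09 (SD, n = 3, adjusted p = 0.53). With median centring Ddit3, Asns and Xbp1 passed as higher, at 0.60, 0.56 and 0.56 (adjusted p = 0.022, 0.042 and 0.044), and all 3 also did with no scaling. Whether the Xbp1 probe reads the spliced form was not tested.

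Immediate early genes, which respond to handling of tissue, were lower with loess, as Atf4 was. Of 9 listed genes 5 were tested and all 5 fell, with list medians of -0.34, -0.47 and -0.62. Jun had the largest fall with -1.33, -0.87 and -1.26, lowest on replicate 1 as Atf4 was. Fosb and Nr4a1 were lowest on replicate 3, and Junb and Ier2 on replicate 2. The summed signal of the 5 genes was 2856, 2331 and 2674 in the control channels and 1984, 1552 and 1671 in the G200 channels. Junb was the brightest, and Fos, Egr1, Dusp1 and Zfp36 had no kept probe. With median centring 1 of the 5 passed as lower, and their median was 0.04, which is -0.23 relative to all genes. Their part in the fall of Atf4 was not tested. In bulk tissue, fewer cells of a type and less RNA per cell cannot be told apart.

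Compared by compartment with loess, the medians of the listed ER and mitochondrial genes lay above that of the cytosolic ones, but the further lists described below showed no such order. Hsf1 was left out of the compartments. The 15 cytosolic chaperones had medians of -0.10, 0.05 and 0.01 on the arrays and -0.01 for the gene means, with 3 higher and 3 lower. The 15 ER genes had medians of 0.24, 0.12 and 0.31 and 0.23 for the gene means, with 6 higher and 4 lower. The 3 mitochondrial genes had 0.38, 0.26 and 0.24 and 0.38, and the 4 factors and targets had -0.09, -0.09 and -0.05 and -0.07. The ER median minus the cytosolic median was 0.33, 0.07 and 0.30, with a mean of 0.23 ± 0.14 (SD, n = 3), and the difference of the medians of the gene means was 0.24. That difference was 0.13, 0.35 and 0.23 without replicates 1, 2 and 3 and 0.34 with the deposited ratio. It was not tested, and it was -0.03 both with median centring and with no scaling, so the order of ER and cytosol turned there. Relative to the median of all genes, the cytosolic, mitochondrial, ER and factor medians were 0.04, 0.43, 0.28 and -0.02 with loess and 0.38, 0.88, 0.35 and 0.29 with median centring. The further lists had loess medians of 0.10, -0.22 and 0.04 for the 3 of the cytosol and 0.02 for that of mitochondria. The medians were -0.05 and 0.05 for ER folding and ER-associated degradation, so cytosolic lists lay both above and below the ER ones. With both colours required above background, the small heat shock and ER-associated degradation lists had -0.14 and 0.0009. With median centring the largest cytosolic list and the ER folding list had 0.57 and 0.58.

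**Figure D3:**
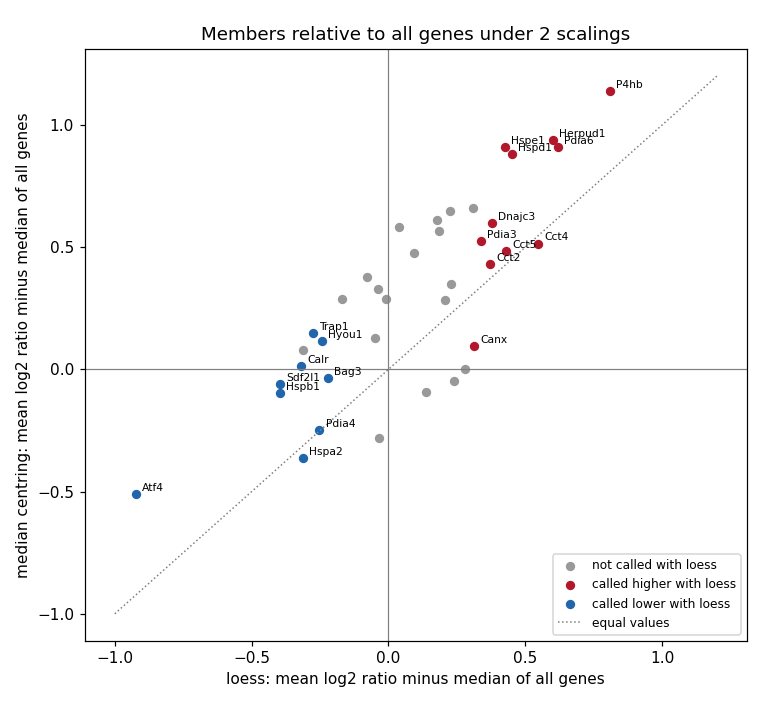
Mean log2 ratio of each of the 38 tested genes minus the median of all genes, with loess (horizontal) and with median centring (vertical), 1 point per gene and the dotted line at equal values. The 11 genes called higher with loess lie above 0 on both axes, and of the 9 called lower Trap1, Hyou1 and Calr lie above 0 with median centring.

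Other genes of the same pathways were read from 8 lists that hold none of the 44 genes. Beside them, 11.5% of all genes rose and 25.9% fell with loess, with a median of -0.05. From each list, up to 3 of the largest rises and 3 of the largest falls are named. The 16 named rises stayed positive under all 4 scalings. Of the 21 named falls, which include Hspb7 at background in G200, 7 stayed negative with median centring, 3 with no scaling and 21 with the deposited ratio, and 14 lay below the median of all genes with median centring. The counts of whole lists turned with the scaling too, as did the shares of all genes. Those shares were 35.2% higher and 8.79% lower with median centring, and 56.5% and 2.14% with no scaling. With median centring the higher and lower calls were 20 and 0 for the cytosolic list, 1 and 1 for small heat shock proteins, 6 and 0 for chaperonin and prefoldin, and 7 and 0 for mitochondria. They were 15 and 0 for ER folding, 8 and 0 for ER-associated degradation, 6 and 1 for the sensors and factors, and 9 and 1 for the ATF4 targets. With no scaling the higher calls of these 8 lists were 25, 2, 8, 11, 22, 15, 10 and 17, and the only lower call was 1 among the sensors and factors. Without replicates 1, 2 and 3 in turn, 8, 14 and 2 of the rises and 15, 20 and 7 of the falls passed.

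In the cytosol the further lists showed rises and falls alike. Of 28 tested genes among 35 further cytosolic HSP70, HSP90 and J-domain genes, 5 rose and 3 fell, with a median of 0.10. Hsbp1, which binds heat shock factor 1, had the largest rise with 0.77, 0.12 and 0.75 (adjusted p = 0.025), followed by Dnaja2 with a mean of 0.42 and Hspa12a with 0.40. Stub1, the ubiquitin ligase CHIP that works with HSP70, had the largest fall with -0.58, -0.63 and -0.43 (adjusted p = 0.0035), before Bag6 with -0.29 and Bag5 with -0.27. Of 6 further small heat shock proteins 5 were tested, and Hspb2 fell with a mean of -0.47. Hspb7, also called lower, was well above background in the control on all arrays and in G200 on 0 of them, so the size of its ratio is not a measured one. The median was -0.22 with Hspb7 and -0.14 over the 4 genes above background in both colours. Of 10 further chaperonin and prefoldin genes 8 were tested, with a median of 0.04. Pfdn1 rose with a mean of 0.26, and Pfdn2 and Pfdn6, subunits of the same prefoldin complex, fell with -0.35 and -0.24.

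In mitochondria, 14 of 16 further chaperones and proteases were tested, 3 rose and 2 fell, and the median was 0.02. Dnajc19, of the protein import motor, had 0.89, 0.45 and 0.57 (adjusted p = 0.0056), and Grpel1, the nucleotide exchange factor of mitochondrial HSP70, and the protease Yme1l1 rose with means of 0.47 and 0.37. Atf5, a transcription factor of the mitochondrial unfolded protein response, fell with -0.37, -0.62 and -0.56 (adjusted p = 0.0047), and Phb1 fell with a mean of -0.27. The rise of Hspd1 and Hspe1 thus stood beside the fall of Atf5 on all 3 arrays.

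In the ER, 26 of 37 further folding genes were tested, 4 rose and 5 fell, and the median was -0.05. Hspa13, Dnajc10 and Txndc12 had the largest rises with means of 0.39, 0.36 and 0.28. Sil1, which like Hyou1 exchanges the nucleotide of BiP, had the largest fall with -0.76, -0.41 and -0.66 (adjusted p = 0.0043), before Fkbp2 with a mean of -0.50 and Txndc11 with -0.37. For ER-associated degradation, 19 of 25 genes were tested, 6 rose and 3 fell, with a median of 0.05. With both colours required above background 18 were tested, 4 rose and 3 fell, with a median of 0.0009. Vcp, the ATPase that draws proteins out of the ER membrane, had 0.60, 0.34 and 0.62 (adjusted p = 0.0059), and Rnf5 and Erlec1 rose with means of 0.42 and 0.36. Ubxn4, Os9 and Syvn1, the ligase HRD1 that Herpud1 binds, fell with means of -0.36, -0.35 and -0.35. Herpud1 and Syvn1 thus had opposite signs on all arrays with loess.

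Among the sensors and transcription factors of the unfolded protein response, 18 of 23 genes were tested, 1 rose and 6 fell, with a median of -0.07. Mbtps1, the protease that cuts ATF6, rose with a mean of 0.29. Creb3l3, a membrane-bound factor made mainly in liver and gut, fell with -1.30, -2.07 and -2.74 (adjusted p = 0.0027). Replicate 3 was its lowest array, as it was for the liver markers, whose part in this fall was not tested. Ppp1r15a, the phosphatase subunit GADD34 that ends the integrated stress response and is a target of ATF4, fell with -0.86, -0.48 and -0.61 (adjusted p = 0.0039), and Tmbim6 fell with a mean of -0.60. Of 32 ATF4 targets in amino acid supply and stress 23 were tested, 2 rose (8.70%) and 6 fell (26.1%), and the median was -0.05. The shares and the median thus lay close to those of all genes. With both colours required above background 22 were tested, 1 rose and 5 fell, with a median of -0.02. Chac1, a glutathione-degrading enzyme, had the largest fall with -0.90, -0.63 and -0.71 (adjusted p = 0.0017), and Gdf15 and Nupr1 fell with means of -0.43 and -0.36. Cth and Psph, enzymes of cysteine and serine synthesis, rose with means of 0.39 and 0.25. With median centring Atf4, Ppp1r15a, Chac1, Gdf15 and Nupr1 had -0.51, -0.37, -0.83, -0.42 and 0.04 relative to all genes, and the median of the ATF4 targets was 0.10 above that of all genes.

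**Figure D4:**
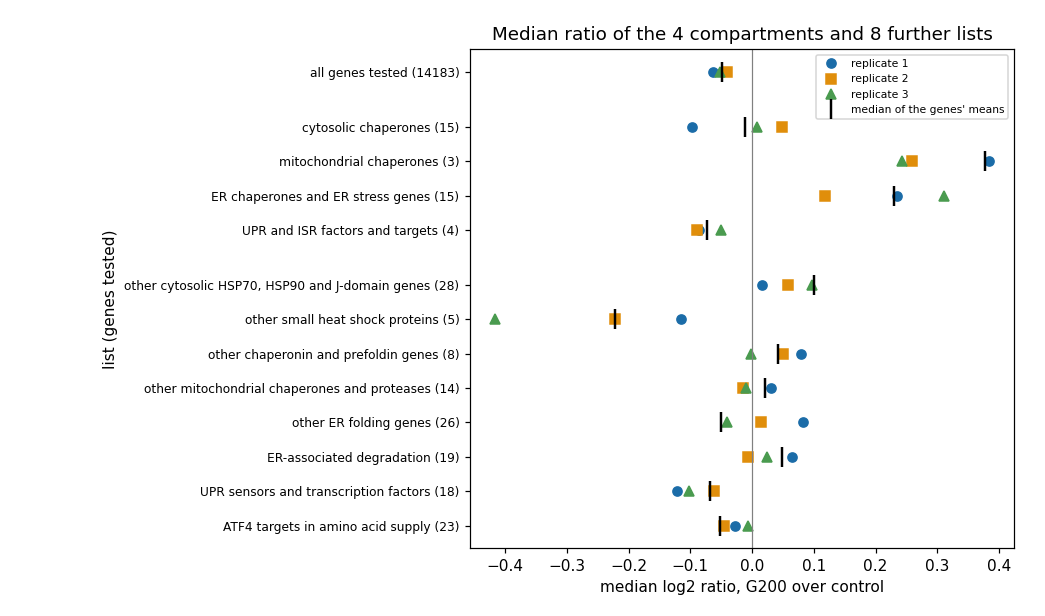
Median log2 ratio of G200 over control on each array (points) and for the gene means (bars), with the number of genes tested in brackets. Shown are all genes tested, the 4 compartments of the 44 genes, which leave out Hsf1, and 8 further lists. With loess scaling the mitochondrial and ER medians and those of 5 of the further lists lie to the right of all genes on all 3 arrays. The other small heat shock proteins and the further sensors and factors of the unfolded protein response lie to the left of all genes on all 3 arrays.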

How the data were processed

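Kidney RNA was measured on 3 two-colour Agilent arrays, control in Cy3 and G200 in Cy5 per the labels. The deposited tables of Agilent Feature Extraction (11.5.1.1 in the file header, 9.3.2.1 in the submitters' notes) give uncorrected median intensity values for spots and their backgrounds in both colours. A log10 ratio (red over green) that the authors obtained with background subtraction and dye normalization is included too. From the deposited intensity, limma 3.58.1 in R 4.3.3 corrected the background (normexp, offset 50) and scaled the dyes by loess within arrays. Control spots (1377) and outlier spots (635, 736 and 945) were left out, and replicate spots were averaged. Of 30367 probes, 18355 (60.4%) were matched through accessions to RefSeq symbols (GRCr8). Of all probes, matched or unmatched, 15651 were kept. The brightest kept probe stood for its gene. Unmatched probes were grouped by accession, or by probe name where they had none, and each such group counted as a gene through its brightest probe. The array was designed on an older build, so its probes have no coordinates here.

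For each gene lmFit and eBayes of limma compared the mean log2 ratio with 0 (two-sided), and p was adjusted over 14183 genes by Benjamini-Hochberg. The array is the replicate block. Of all genes, 6964 had an unadjusted p under 0.05. Compartments and lists are described without a test. The members and lists were chosen with earlier results of these data known. All member genes are named, with up to 3 of the largest called rises and falls of each pathway list that had the same sign on all arrays, the brightest gene of each marker list and its markers without a kept probe. Promoter sequences are from RefSeq (GRCr8). The alternatives were other scalings, an offset of 0, other filters, the mean of a gene's probes, a robust variance model, a test of the log ratios against 0 by t, the methods' t-test between channels (chosen after seeing the data), separate channels without the block, and each array left out.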

Additional observations from a re-analysis of the deposited data

How the results depend on the processing

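Across 16 alternatives to the fit with loess, 444 results of the 38 tested genes kept their direction and side of the threshold, while 117 lost the call, 35 gained one and 36 changed sign. These overlap, since 12 of the sign changes also lost a call and 12 gained one. Of the sign changes, 14 came with median centring and 17 with no scaling, and the cause was not tested. The others, in genes that passed in neither fit, were Hspa8 with the deposited ratio (0.118), with an offset of 0 (0.0779) and without replicate 1 (-0.13 to 0.16 over the omissions), Hsp90aa1 with the mean of its probes (0.0758) and Hspa4 without replicate 2 (-0.00884 to 0.0740 over the omissions).

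With median centring the calls were 24 higher and 0 lower. The cytosolic, mitochondrial, ER and factor medians were 0.65, 1.15, 0.62 and 0.56, and ER minus cytosol was -0.0291. The genes that turned positive were Hspa8 0.85, Hsp90aa1 0.56, Hsp90ab1 0.35, Bag3 0.24, Hspb1 0.17, Cct3 0.65, Hsf1 0.40, Trap1 0.42, Hyou1 0.39, Sdf2l1 0.21, Calr 0.28, Pdia4 0.0202, Xbp1 0.56 and Ddit3 0.60. With no scaling 8314 genes were called, with 31 members higher and 0 lower. The medians were 1.00, 1.50, 0.97 and 0.91, and ER minus cytosol was -0.0291. The genes that turned positive were all 17 that were negative with loess: Hspa2 0.26, Hspa8 1.20, Hsp90aa1 0.91, Hsp90ab1 0.70, Stip1 0.34, Bag3 0.59, Hspb1 0.52, Cct3 1.00, Hsf1 0.75, Trap1 0.77, Hyou1 0.74, Sdf2l1 0.56, Calr 0.63, Pdia4 0.37, Xbp1 0.91, Atf4 0.11 and Ddit3 0.95. Of the genes called lower with loess, Hyou1 was called higher in both settings, and Trap1 and Calr with no scaling. With the deposited log ratio the cytosolic median was 0.0931, the ER median 0.43 and the factor median -0.13.

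With an offset of 0 the members called lower were 5 and the ER median was 0.38. The methods' t-test, which assumes unequal variance between groups, was at first replaced by a test of the log ratios against 0. By that test 4475 genes passed unadjusted, with 8 members higher and 5 lower. After adjustment 2 genes passed, with 0 members higher and 0 lower, where limma gave 11 and 9. The methods' t-test between the control and G200 channels was added after seeing the data and counts the repeated control as separate samples. It gave 4178 genes with 7 members higher and 4 lower unadjusted, and 337 genes with 1 higher and 0 lower after adjustment. With separate channels and no replicate block, 4095 genes were called, with 8 members higher and 4 lower. Leaving out each array in turn gave 1612 to 4972 genes called, 2 to 11 members higher and 2 to 7 lower, on fewer arrays. Requiring both colours above background, no filter, the mean of a gene's probes and the robust variance model gave 10 to 11 members higher and 8 to 10 lower. The cytosolic median lay near 0 and was also positive with an offset of 0, with the mean of probes and without replicate 1. Spots near background limit the ratios of dim probes.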

Other observations

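Markers of other cell types were read from further lists, with directions as scaled by loess. Of 6 principal cell markers 5 were tested and none passed limma's test, with Aqp2 the brightest (-0.37, -0.03 and -0.50) and Fxyd4 without a probe. The median of that list was 0.17. Of 5 intercalated cell markers 4 were tested, with a median of 0.03, and 1 rose and 1 fell. Atp6v0d2 rose, and the brightest, Slc4a1, fell with -0.65, -0.51 and -0.89, and Slc26a4 had no kept probe. Slc4a1 is also a red cell gene. Of 7 endothelial markers 6 were tested, with a median of -0.13. Pecam1 fell, while Plvap, the brightest, had -0.06, -0.37 and -0.15, and Tek had no kept probe. Of 8 stromal markers 7 were tested, with a median of 0.05, and Dcn and Pdgfra rose. Col3a1, the brightest, had 0.06, -0.28 and 0.36, and Lum had no kept probe. Of 7 macrophage markers 6 were tested, with a median of 0.00. Lyz2, the brightest, rose with 0.74, 0.30 and 0.77, C1qb fell, and Cd163 had no kept probe. With median centring no marker of these lists passed as lower. Markers that passed as higher there numbered 4 for principal cells, 3 for intercalated cells, 2 for endothelium, 6 for stroma and 1 for macrophages. Of all genes, 35.2% passed as higher and 8.79% as lower with that scaling.

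Immune and neighbouring tissues gave few measurable markers. Of 8 lymphocyte markers 3 were tested and none passed, with a median of -0.06. Cd3d was the brightest, Cd3e, Cd4 and Cd8a had no kept probe, and Ms4a1 and Cd79a had no probe at all. Of 5 plasma cell markers 2 were tested and none passed, with a median of 0.05. Pou2af1 was the brightest, Mzb1 and Tnfrsf17 had no kept probe, Jchain had no probe at all, and Derl3 also stands in the list of ER-associated degradation. Of 10 pancreas markers 2 were tested, with a median of -0.44. Ctrb1, the brighter, fell with -1.01, -0.63 and -0.89, and Prss1, Cela1, Cpa1, Cpb1, Amy2a3, Pnlip, Ins2 and Gcg had no kept probe. Of 7 adrenal markers 3 were tested and all 3 passed as lower, with a median of -0.41, but Pnmt was above background in G200 on 2 arrays only. Cyp21a1 was the brightest, and Cyp11b1, Cyp11b2, Star and Dbh had no kept probe. With median centring none of the 3 passed. Of 6 adipose markers 4 were tested and none passed, with a median of -0.04 and Adipoq the brightest. Lep had no kept probe, and Plin1 had no probe at all. Of 6 skeletal muscle markers 2 were tested, with a median of -0.19. Tnni2 fell, Myl11 was the brighter, and Acta1, Ckm, Myh4 and Tnnt3 had no kept probe.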
